A study of Mus musculus with 6 samples.

Results

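The genes described here are 43 genes of the skeletal muscle fibre: the proteins of the sarcomere, the proteins that release and take up calcium, enzymes of muscle energy metabolism and a pair of muscle transcription factors. They were chosen by name, as every array probe whose platform gene symbol is on that list, out of 11204 genes with a testable probe. Of the 43 genes, 41 had at least 1 named probe (87 probes in all), and 39 were tested, through 66 probes. Myh3, the embryonic myosin heavy chain, and Cacna1s, the pore subunit of the muscle L-type calcium channel, had no named probe. Myh4 and Neb had a probe that was not detected on any array. Total RNA from primary calvaria, the bones that roof the skull, was hybridised to 6 Illumina bead arrays. All mice were FVB/N and aged P3, that is 3 days after birth. The TG mice overexpressed miR34c, and their 3 samples were set against 3 wild-type samples (WT), all described as biological replicates. The labels name neither the promoter behind the overexpression nor a tissue limit beyond the osteoblast of the series title, and they do not say whether a sample is 1 pup or a pool. The control block of the deposited table heads its columns with other replicate numbers and another age than the labels, a discrepancy that is not settled by the files. The question was whether muscle transcripts in these bone samples differ between TG and WT, and how far they differ between samples whatever the genotype.

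A muscle fibre contracts when myosin heads of the thick filament pull on actin of the thin filament, inside repeating units, the sarcomeres, that are bounded by Z-discs. Calcium released from the sarcoplasmic reticulum through the ryanodine receptor binds troponin C and uncovers the actin sites, and a calcium pump then returns it to store. Fast and slow fibres use different genes for many of these parts, and developing muscle uses embryonic and perinatal forms that adult forms later replace. Muscle is not part of bone, but head and neck muscles attach to the skull. In bulk tissue RNA, fewer cells of a type and less RNA per cell cannot be told apart.

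The agent of the TG group comes from the locus below, shown because every group difference here is named after it. The hairpin lies on the minus strand at chr9:51103034-51103110 of GRCm38.p6, as given by RefSeq, and the capitals mark miR-34c-3p, the arm that the table used here lists. The arm that the construct was meant to raise is not stated in the labels.
Mir34c hairpin: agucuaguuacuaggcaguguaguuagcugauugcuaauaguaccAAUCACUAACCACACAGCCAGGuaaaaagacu

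Bone transcripts were present in the data, though they do not tell calvaria from other bone. Col1a1, the main bone collagen gene, lay at 15.15 to 15.32 in TG and 15.08 to 15.28 in WT on the normalised log2 scale. All 7 osteoblast markers looked up were detected and tested. Cartilage transcripts were present as well: Col2a1, the main cartilage collagen gene, lay at 14.87 to 15.36 in TG and 14.53 to 15.18 in WT. The arrays were alike in overall signal, with medians of 125.1 to 132.6, and 19680 to 21412 of the 45281 probes passed a detection threshold of 0.05 on each. The sex-linked genes divided the TG group. Xist, transcribed from the inactive X chromosome of females, had 4.52, 10.82 and 11.64 on TG replicates 1, 2 and 3, against 4.59, 4.62 and 4.47 on WT replicates 1, 2 and 3. The Y-linked Kdm5d had 7.17, 4.69 and 4.43 in TG, against 7.36, 7.01 and 6.99 in WT. TG replicate 1 therefore shared the male pattern of the 3 WT arrays, and the other TG arrays had the female one. The array with the lowest muscle transcripts, described next, is that same TG replicate 1.

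Muscle transcripts differed several-fold between arrays of the same genotype, and they did so together. Atp2a1, the calcium pump of fast fibres, had deposited intensities of 2423.4, 10288.2 and 10033.9 on TG replicates 1, 2 and 3, against 4224.7, 16447.1 and 6637.8 on WT replicates 1, 2 and 3. TG replicate 1 was lowest and WT replicate 2 highest, with the other 4 arrays between them, so the groups overlapped throughout. Across the 39 tested genes the normalised log2 range over the 6 arrays was 1.02 to 3.71, with a median of 2.43, where the median of all tested genes was 0.46. All 39 had a range of at least 1, a spread shared by 7.62% of all genes tested. WT replicate 2 was the highest array for 37 of the 39 genes (15.7% of all genes) and TG replicate 1 the lowest for 37 (also 15.7%). Both held for 35 genes, against 4.57% of all genes and 21.5% of the 854 genes with a range of at least 1. The 2 genes without WT replicate 2 on top were Myh1 and Ky, and the 2 without TG replicate 1 at the bottom were the slow genes Myh7 and Tnnt1, for which WT replicate 1 was marginally lower. In 22 of the 39 genes all 6 arrays stood in one order, from high to low WT replicate 2, TG replicate 2, TG replicate 3, WT replicate 3, WT replicate 1 and TG replicate 1. That order is the order of the mean of these same 39 genes, so some agreement is built in, and no share over all genes was computed.

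**Figure D1:**
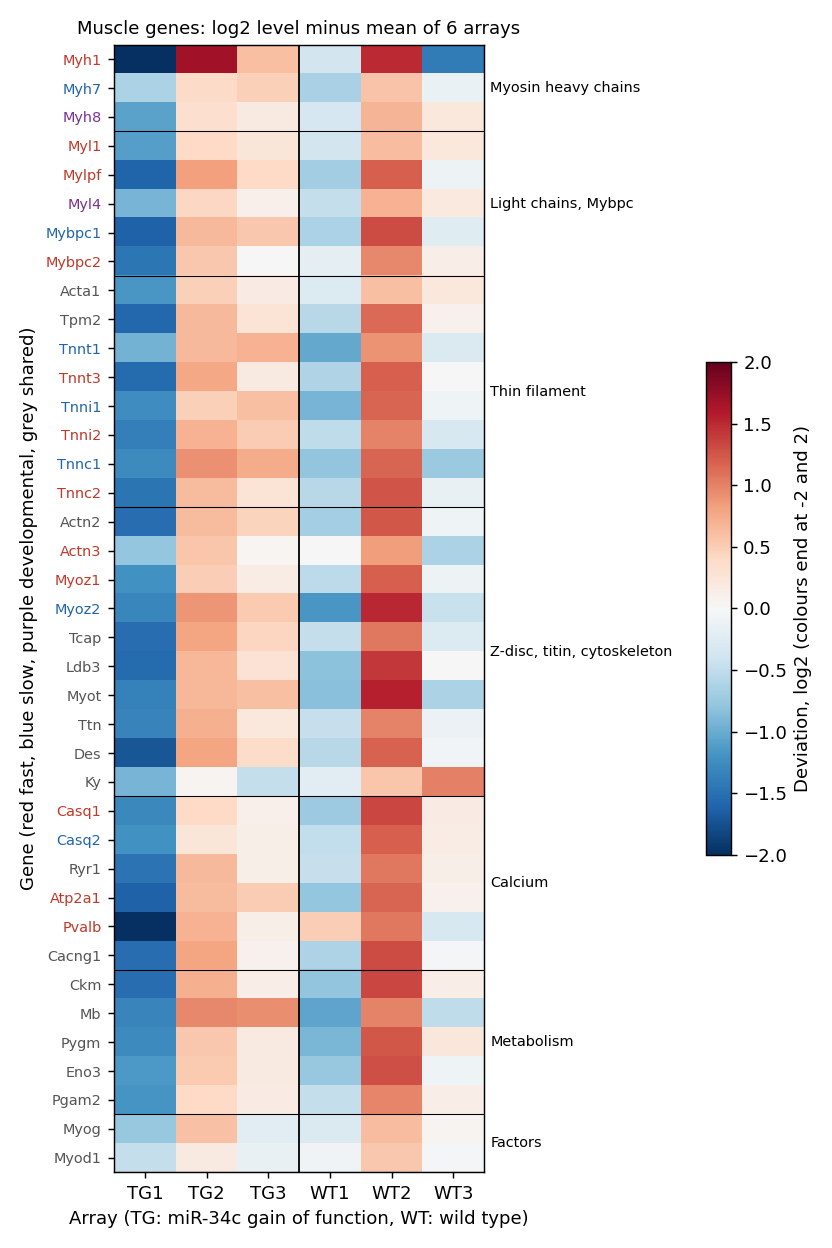
Normalised log2 level of each of the 39 tested muscle genes (rows, grouped by role) minus that gene's mean over the 6 arrays, for TG and WT arrays (columns). The TG replicate 1 column is blue and the WT replicate 2 column red in nearly every row; Ky, reddest on WT replicate 3, departs from the others.

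The mean deviation of the 39 genes from their 6-array means was -1.31, 0.62 and 0.28 on TG replicates 1, 2 and 3, against -0.55, 1.07 and -0.09 on WT replicates 1, 2 and 3. The distance between the lowest and highest array was 1.92 within TG and 1.62 within WT. For every one of the 39 genes the range within WT alone exceeded the size of its TG minus WT difference. Subtracting the mean of the other members on the same array left a median SD over arrays of 0.23, against 0.93 before the subtraction. That SD became smaller for 37 genes; the exceptions were Ky and Myod1. Ttn, encoding titin, the giant spring of the sarcomere, followed the mean of the group most closely on its brightest probe, with departures of -0.07 to 0.09.

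Promoter motifs of the listed genes are given here as a description, and their relation to the levels on the arrays was not tested. RefSeq promoter windows, 250 bases before to 50 after the annotated start, were found for 34 of the 43 genes (40 windows). These genes include Myh3, Myh4 and Cacna1s, which were not tested on the arrays. The E-box CAGCTG, a form bound by Myod1 and Myog, reads the same on both strands and stood in 19 of the 40 windows (47.5%), against 16.3% of all 32851 windows. The MEF2 consensus site, searched on both strands, stood in 8 (20%), against 3.19% of all windows. Either motif was found in 60% of the members' windows and in 19.0% of all windows. By class, windows with either motif were 7 of 10 for fast genes, 5 of 9 for slow genes and 1 of 3 for developmental genes. The 5 chosen windows below show Pgam2 and Myoz2 with both motifs, Myh8 with a MEF2 site only and Ckm with an E-box only. Ky is shown with neither. Tnnc2, Ryr1 and Actn2, which are not shown, also had neither motif. Their SDs after subtracting the mean of the other members were 0.12, 0.15 and 0.16. The other tested genes with neither motif in any window had larger SDs. These were 0.23 for Ldb3, 0.25 for Mybpc2, 0.30 for Myl4, 0.35 for Tnnt1, 0.41 for Tnnc1 and Myh7, and 0.42 for Myog. Genes with a MEF2 site ranged widely too, with 0.07 for Ttn and 0.88 for Myh1. Capitals mark the E-box and the MEF2 site; all are from GRCm38.p6 and run 5′ to 3′ on the gene's strand. They lie at chr11:5803747-5804046 (minus strand, Pgam2), chr3:123034938-123035237 (minus, Myoz2), chr11:67276874-67277173 (plus, Myh8), chr7:19410844-19411143 (plus, Ckm) and chr9:102505888-102506187 (plus, Ky).
Pgam2: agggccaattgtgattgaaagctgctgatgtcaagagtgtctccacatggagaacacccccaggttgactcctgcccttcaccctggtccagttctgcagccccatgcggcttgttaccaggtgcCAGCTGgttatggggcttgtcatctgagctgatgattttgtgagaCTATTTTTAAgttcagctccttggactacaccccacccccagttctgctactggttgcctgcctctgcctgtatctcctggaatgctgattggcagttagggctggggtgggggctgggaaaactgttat
Myoz2: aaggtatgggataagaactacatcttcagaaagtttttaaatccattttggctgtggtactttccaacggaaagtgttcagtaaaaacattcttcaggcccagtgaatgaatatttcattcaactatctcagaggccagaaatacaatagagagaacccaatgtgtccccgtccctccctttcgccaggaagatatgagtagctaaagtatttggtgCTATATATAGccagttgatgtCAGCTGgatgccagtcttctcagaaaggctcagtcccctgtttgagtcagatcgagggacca
Myh8: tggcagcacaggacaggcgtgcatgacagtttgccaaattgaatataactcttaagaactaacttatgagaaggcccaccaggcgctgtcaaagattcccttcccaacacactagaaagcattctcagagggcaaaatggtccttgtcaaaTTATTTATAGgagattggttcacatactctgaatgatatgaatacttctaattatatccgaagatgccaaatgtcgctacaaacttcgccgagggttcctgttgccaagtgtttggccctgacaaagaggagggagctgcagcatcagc
Ckm: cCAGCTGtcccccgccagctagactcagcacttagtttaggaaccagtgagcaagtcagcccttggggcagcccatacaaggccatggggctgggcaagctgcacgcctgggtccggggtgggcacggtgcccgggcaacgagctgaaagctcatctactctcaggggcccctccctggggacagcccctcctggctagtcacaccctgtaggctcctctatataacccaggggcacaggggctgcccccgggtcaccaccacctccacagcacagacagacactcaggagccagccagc
Ky: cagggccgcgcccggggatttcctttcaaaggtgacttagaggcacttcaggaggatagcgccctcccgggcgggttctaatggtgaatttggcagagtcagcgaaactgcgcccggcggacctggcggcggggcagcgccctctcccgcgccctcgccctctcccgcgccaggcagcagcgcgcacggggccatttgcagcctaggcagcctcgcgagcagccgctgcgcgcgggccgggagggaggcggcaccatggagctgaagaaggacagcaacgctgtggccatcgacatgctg

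No muscle gene passed the test between TG and WT. With limma, 0 of 39 members had an adjusted p under 0.05, as did 0% of the 20632 probes and of the 11204 genes tested, and the smallest adjusted p of a member was 0.9997. At an unadjusted p under 0.05 there was 1 member, Ky, where 2.53% of all genes stood there. The groups did not overlap for 0 members, against 3.48% of all genes lower in TG and 3.34% higher. The log2 fold change, TG minus WT, was negative for 33 and positive for 6 members, with a median of -0.31, while 50.5% of all genes were negative, with a median of -0.0014. The members are not independent, since they share the array-to-array pattern above, and 1 array at a time set the direction of that count. Without TG replicate 1, 33 of the 39 values were positive and the median was 0.24. Without WT replicate 2, 28 were positive and the median was 0.15. With either of the other TG arrays or WT replicate 1 left out, 1 was positive, and without WT replicate 3, 3 were.

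**Figure D2:**
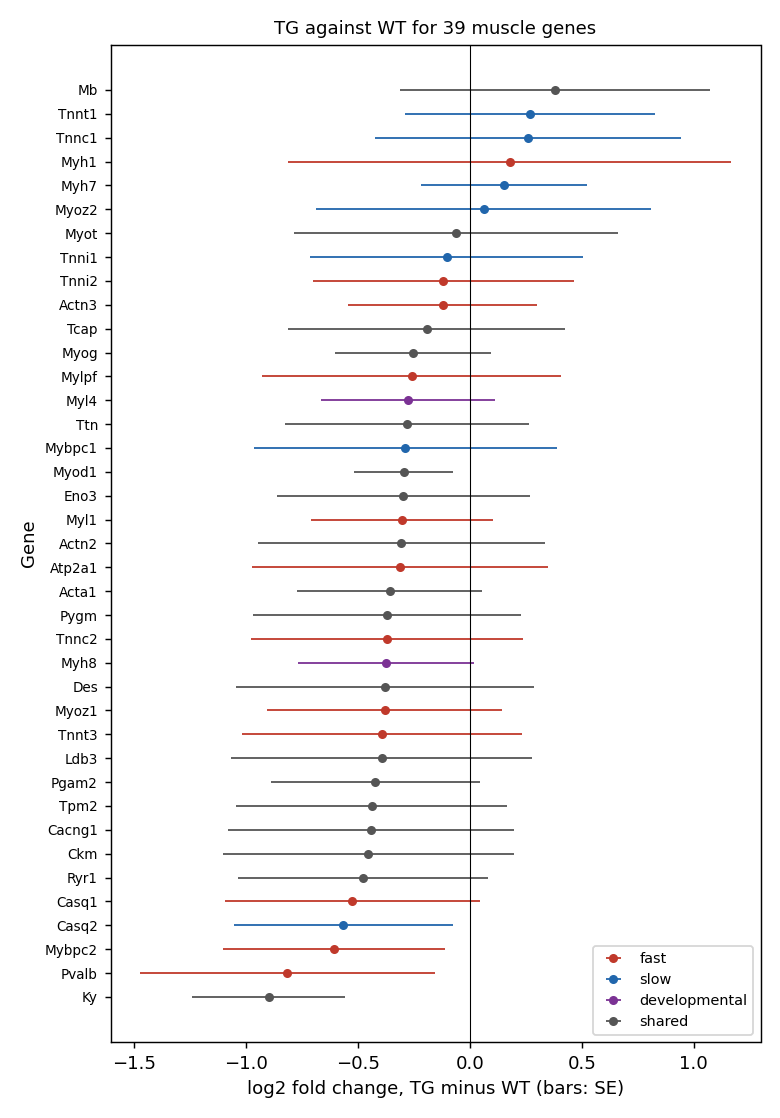
Log2 fold change (TG minus WT, x axis) of the 39 tested muscle genes, sorted, with bars of 1 SE from limma and colours for fast, slow, developmental and shared genes. Most bars cross 0; Ky at -0.90 is the lowest and Mb at 0.38 the highest, and 4 of the 6 positive genes are slow.

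Among the myosin heavy chains, the motor proteins of the thick filament, Myh8 had a negative and Myh1 and Myh7 a positive TG minus WT difference, and none passed the test. Myh8, the perinatal heavy chain, had intensities of 13372.5, 33514.2 and 29595.2 on the TG arrays, against 21514.6, 45658.0 and 28131.7 on the WT arrays. Its value on WT replicate 2 lay near the top of the array, where the highest probe read 45842, and its brightest probe may understate differences there. The log2 fold change of Myh8 was -0.37 ± 0.39 (SE, n = 3 each; limma, unadjusted p = 0.371, adjusted p = 0.9997, 95% interval -1.28 to 0.53). Its 2 other probes had wider ranges, 2.47 and 2.26 against 1.76, and log2 fold changes of -0.53 and -0.54. Myh1, the heavy chain of fast IIx fibres, had 152.7, 713.7 and 435.5 in TG, against 262.5, 744.9 and 170.3 in WT. Its range of 3.71 was the widest of the 39 tested members, and its departures from the mean of the others had the largest SD, 0.88. It was low on WT replicate 3 as well as on TG replicate 1; Actn3 and Pvalb also had their second lowest value there. The log2 fold change of Myh1 was 0.18 ± 0.99 (limma, unadjusted p = 0.861, 95% interval -2.10 to 2.46), which leaves changes of several-fold in either direction undetectable with these arrays. The second tested Myh1 probe, dim and detected on 3 arrays, had a range of 0.63 and a log2 fold change of 0.04. Myh7, the slow and cardiac heavy chain, was dim, at 126.1, 153.2 and 167.4 in TG, against 126.9, 172.9 and 135.0 in WT, and was not detected on TG replicate 1 or WT replicate 1. Its log2 fold change was 0.15 ± 0.37 (limma, unadjusted p = 0.691). Myh4, the heavy chain of the fastest IIb fibres, had background-level intensities of 109.5, 118.2 and 126.9 in TG, against 113, 121.8 and 115 in WT, and no array detected it. The heavy chain genes Myh1, Myh3, Myh4 and Myh8 are neighbours in a cluster on chromosome 11 and similar in sequence; whether their probes share signal was not tested.

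**Figure D3:**
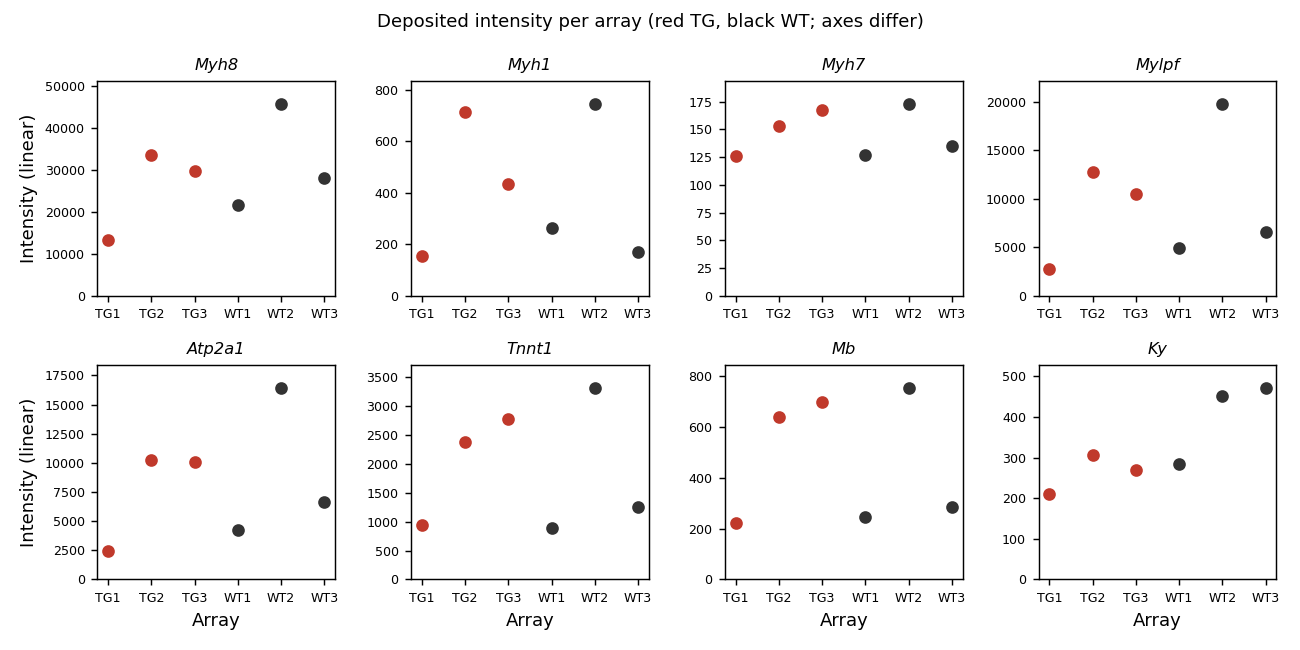
Deposited linear intensity of 8 muscle genes on each array (TG red, WT black), 1 panel per gene, each y axis starting at 0 with its own scale. In 7 panels TG replicate 1 lies at or near the bottom and WT replicate 2 at the top; in the Ky panel WT replicates 2 and 3 are highest.

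The light chains, small subunits that bind the neck of the myosin head, were lowest on TG replicate 1 and highest on WT replicate 2, as Myh8 was. Mylpf had a wider range than Myh8, 2.80 against 1.76. Myl1, the fast essential light chain, had 11159.5, 29093.3 and 26972.0 in TG, against 18100.5, 37900.0 and 23636.8 in WT, and its TG minus WT difference in log2 was -0.30 ± 0.41 (limma, unadjusted p = 0.475). Its 2 other probes had -0.42 and -0.57, with wider ranges of 2.87 and 3.25 against 1.72. Mylpf, the fast regulatory light chain, had 2733.4, 12727.4 and 10469.9 in TG, against 4903.3, 19754.3 and 6570.1 in WT; the ratio of WT replicate 2 to TG replicate 1, 7.23, was the largest of the members, and its log2 fold change was -0.26. Myl4, the embryonic and atrial essential light chain, had log2 values of 10.29, 11.63 and 11.32 in TG, against 10.74, 11.92 and 11.41 in WT, which differ by -0.28 ± 0.39 (limma, unadjusted p = 0.498). The myosin binding proteins C, which tie thick filaments together, are Mybpc1 in slow and Mybpc2 in fast fibres. Mybpc2 had intensities of 145.9, 262.7 and 231.9 in TG, against 206.4, 361.5 and 214.7 in WT. Its log2 fold change was -0.61 ± 0.50 (limma, unadjusted p = 0.254), and -0.21 with the deposited log2 values. Mybpc1 had intensities of 587.7, 2232.1 and 2336.2 in TG, against 1058.8, 4043.7 and 1219.0 in WT, a log2 fold change of -0.29 on that probe and -0.29 to -0.08 on 3 others.

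On the thin filament, Acta1, the skeletal muscle actin, had intensities of 10917.7, 32181.5 and 26542.6 in TG, against 19431.2, 38017.1 and 25362.3 in WT, which gave -0.36 ± 0.41 as log2 fold change (limma, unadjusted p = 0.410). Tpm2, beta-tropomyosin, which lies along actin, had intensities of 1349.3, 5424.5 and 4680.1 in TG, against 2576.2, 8782.0 and 3567.1 in WT, a difference of -0.44 ± 0.61 in log2 (limma, unadjusted p = 0.490). Its second probe did not follow the muscle pattern at all. That probe read 2540.1, 1979.1 and 2073.5 in TG, against 2296.0, 2329.0 and 2062.3 in WT, a log2 range of 0.33 against 2.71 for the first probe. The third, dim Tpm2 probe had a range of 1.89. The troponin subunits exist as slow and fast forms of T, I and C, the parts that bind tropomyosin, inhibit and bind calcium. The fast forms Tnnt3, Tnni2 and Tnnc2 had log2 fold changes of -0.39, -0.12 and -0.37, and the slow forms Tnnt1, Tnni1 and Tnnc1 had 0.27, -0.10 and 0.26; none passed. Tnnt3 had intensities of 961.8, 3988.0 and 3006.0 in TG, against 1741.6, 6099.8 and 2314.0 in WT (SE 0.63; limma, unadjusted p = 0.549), and Tnnt1 had intensities of 938.3, 2377.7 and 2775.0 in TG, against 881.9, 3316.1 and 1251.0 in WT (SE 0.56). Both were high on WT replicate 2 and TG replicates 2 and 3. Tnnc2 had intensities of 2315.6, 8832.2 and 7467.1 in TG, against 4185.2, 15189.1 and 5060.3 in WT, and Tnnc1 had intensities of 533.9, 1920.3 and 1906.3 in TG, against 699.6, 2664.6 and 646.2 in WT. These too were highest on WT replicate 2 and lowest on TG replicate 1. Tnni2 had intensities of 2420.2, 8970.2 and 8449.7 in TG, against 4276.6, 12806.7 and 4413.2 in WT, and Tnni1 had intensities of 158.5, 273.8 and 318.9 in TG, against 174.3, 436.8 and 211.4 in WT.

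The Z-disc and scaffold genes held the member nearest to the shared pattern, Ttn, and one of those farthest from it, Ky, which is described after the others. Actn2, the alpha-actinin that anchors actin at the Z-disc, had log2 values of 10.99, 13.15 and 12.96 in TG, against 11.83, 13.76 and 12.42 in WT. Des, the desmin filament around Z-discs, had 9.14, 11.63 and 11.21 in TG, against 10.29, 12.04 and 10.79 in WT. Both show the order of arrays given above, and their log2 fold changes were -0.31 and -0.38. Myoz1, a calcineurin-binding Z-disc protein of fast fibres, had intensities of 281.3, 644.7 and 595.9 in TG, against 392.2, 1157.0 and 441.1 in WT, differing by -0.38 ± 0.53 in log2 (limma, unadjusted p = 0.490). Its slow counterpart Myoz2 had intensities of 345.0, 1120.1 and 1016.5 in TG, against 370.6, 1992.6 and 491.5 in WT, with a log2 fold change of 0.06. Ldb3, which binds alpha-actinin, had intensities of 149.8, 304.1 and 284.2 in TG, against 182.1, 512.5 and 221.0 in WT, differing by -0.39 ± 0.67 in log2 (limma, unadjusted p = 0.575). Tcap, which caps titin, had a log2 fold change of -0.19, titin itself -0.28, Actn3 -0.12 and Myot, myotilin of the Z-disc, -0.06. Actn3, the fast-fibre alpha-actinin, had its second lowest value on WT replicate 3, at 6.42 on the log2 scale, as did Myh1. Titin was covered by 12 probes, of which 7 were tested: 4 had ranges of 1.68 to 2.77, and 3 dim ones had 0.42 to 0.65. The closeness of titin to the shared pattern was measured on its brightest probe. The second brightest, detected on all 6 arrays, had intensities of 258.1, 827.4 and 1221.7 in TG, against 398.1, 719.4 and 508.1 in WT. That probe was highest on TG replicate 3, and its log2 fold change was 0.26. The single Neb probe, for nebulin, the ruler of the thin filament, was not detected on any array.

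Ky, the kyphoscoliosis peptidase gene, whose loss causes a muscle and spine disorder in mice, departed from the shared pattern. It had intensities of 211.2, 307.1 and 268.4 in TG, against 284.6, 451.8 and 471.7 in WT. WT replicate 3, an average array for the other genes, was the highest, and TG replicate 1 the lowest; TG replicate 2 stood above WT replicate 1, so the groups overlapped. The log2 mean was 7.25 ± 0.50 in TG and 8.15 ± 0.62 in WT (SD, n = 3 each). The difference, on the log2 scale, was -0.90 ± 0.34 (limma, unadjusted p = 0.0300, adjusted p = 0.9997), lower on average in TG but not past the test. Its second detected probe had -1.01 ± 0.36 with 195.7, 272.8 and 238.2 in TG, against 252.2, 497.0 and 390.6 in WT. Without 1 array at a time the Ky value was -1.23 to -0.62, so it kept its sign, and with the deposited log2 values it was -0.49. Keeping the sign was not particular to Ky: Mybpc2, Casq2, Myod1 and Pvalb also stayed negative on leaving out any 1 array. Relative to the mean of the other members on each array, Ky departed by 0.38, -0.57 and -0.77 in TG, against 0.35, -0.53 and 1.13 in WT.

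Calcium-handling genes all had negative log2 fold changes, 6 of 6 tested, with a median of -0.50, and none passed. That direction rested on single arrays: without TG replicate 1, and likewise without WT replicate 2, 3 of the 6 were positive, with medians of 0.07 and -0.03. Ryr1, the calcium release channel, had log2 values of 7.03, 9.15 and 8.62 in TG, against 8.05, 9.56 and 8.63 in WT, with a log2 fold change of -0.48 and -0.38 and -0.45 on its other tested probes. Casq1 and Casq2, the calsequestrins of fast fibres and of slow and cardiac muscle, hold calcium in store. Casq1 had intensities of 145.7, 231.5 and 226.5 in TG, against 168.3, 402.8 and 205.1 in WT, a difference of -0.52 ± 0.57 in log2 (limma, unadjusted p = 0.384). Casq2 had intensities of 176.1, 292.2 and 305.1 in TG, against 225.6, 543.7 and 267.6 in WT, a difference of -0.56 ± 0.49 in log2 (limma, unadjusted p = 0.282). Atp2a1, whose intensities are given above, differed by -0.31 ± 0.66. Cacng1, a subunit of the voltage-gated calcium channel, differed by -0.44 ± 0.64 in log2. Pvalb, parvalbumin, the soluble calcium buffer of fast fibres, had 5.40, 8.12 and 7.55 in TG, against 7.92, 8.49 and 7.11 in WT, on the log2 scale, and its TG minus WT difference was -0.81 ± 0.66 (limma, unadjusted p = 0.251). It was high on WT replicate 1, where the other members were low: its departure from their mean there was 1.07. Without TG replicate 1 its log2 fold change was -0.0037, so the difference rested on that array, and with the deposited log2 values it was -0.32.

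Of the metabolic genes, Ckm, muscle creatine kinase, had intensities of 728.6, 2779.3 and 2138.0 in TG, against 1133.6, 4963.2 and 1857.4 in WT, differing by -0.45 ± 0.65 in log2 (limma, unadjusted p = 0.506). Pygm, muscle glycogen phosphorylase, had intensities of 134.0, 206.8 and 199.8 in TG, against 146.0, 307.5 and 180.1 in WT, a difference of -0.37 ± 0.60 in log2 (limma, unadjusted p = 0.556). The glycolytic enzyme Pgam2 had intensities of 801.6, 2004.5 and 1918.3 in TG, against 1222.5, 3441.8 and 1644.7 in WT, a difference of -0.42 ± 0.47 in log2 (limma, unadjusted p = 0.394), and Eno3, the muscle enolase, had -0.30. All 4 of these enzyme genes were lowest on TG replicate 1 and highest on WT replicate 2. Mb, myoglobin, the oxygen-binding protein abundant in slow and oxidative fibres, had a positive value, which did not pass the test. It had intensities of 220.8, 637.4 and 699.0 in TG, against 245.4, 753.4 and 283.9 in WT, with a log2 fold change of 0.38 ± 0.69 and 0.51 ± 0.51 on its second probe. Relative to the mean of the other members, Mb departed by -0.01, 0.36 and 0.67 in TG, against -0.51, -0.08 and -0.42 in WT, so TG and WT did not overlap. This held for 2 of the 39 members, Mb and Tnnt1, whose departures were 0.38, 0.03 and 0.43 in TG, against -0.48, -0.17 and -0.20 in WT. Of the genes outside the list, set against the same mean, 0.0627% had TG above WT without overlap. That share is no usable background for the members. The members' mean itself overlaps between TG and WT, so subtracting it from a gene with little range forces an overlap. Most genes outside the list had a range under 1, unlike the members. Among all 741 pairs of tested members, 11.1% did not overlap, in either direction. Myog and Myod1, the transcription factors that drive muscle differentiation, were dim and had narrow ranges of 1.37 and 1.02; Myh7, also dim, had 1.22. Myod1 had intensities of 127.4, 143.3 and 140.3 in TG, against 140.6, 166.6 and 134.6 in WT, was not detected on TG replicate 1, and differed by -0.29 ± 0.22 on the log2 scale (limma, unadjusted p = 0.220). Myog had intensities of 139.3, 189.3 and 162.9 in TG, against 155.5, 211.6 and 158.2 in WT, a difference of -0.25 ± 0.35 in log2 (limma, unadjusted p = 0.487). The second tested Myog probe, detected on 4 arrays, had a range of 0.55, a difference of -0.27 and its highest value on WT replicate 3. The background signal takes up most of such dim intensities, which limits what they can show.

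Set apart by fibre type, the 12 tested fast genes had a mean deviation of -1.46, 0.69 and 0.26 on the TG arrays, against -0.40, 1.11 and -0.20 on the WT arrays. The 7 slow genes had -1.18, 0.60 and 0.53 in TG, against -0.81, 1.11 and -0.26 in WT. The developmental pair Myh8 and Myl4 had a flatter course, spanning 1.38 within TG and 1.10 within WT, where the fast genes spanned 2.15 and 1.51; the Myh8 probe is the one near the top of the range. All 3 classes were lowest on TG replicate 1 and highest on WT replicate 2. Of the fast genes 1 had a positive log2 fold change and 11 a negative one (median -0.34), of the slow genes 4 and 3 (median 0.06), and of the developmental genes 0 and 2 (median -0.32). Slow minus fast was 0.28, -0.09 and 0.27 in TG, against -0.41, 0.00 and -0.05 in WT, that is 0.15 ± 0.21 in TG and -0.15 ± 0.22 in WT (SD, n = 3 each), and TG replicate 2 lay below WT replicates 2 and 3. This difference of 0.31 stayed positive, at 0.18 to 0.43, on leaving out any 1 array.

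**Figure D4:**
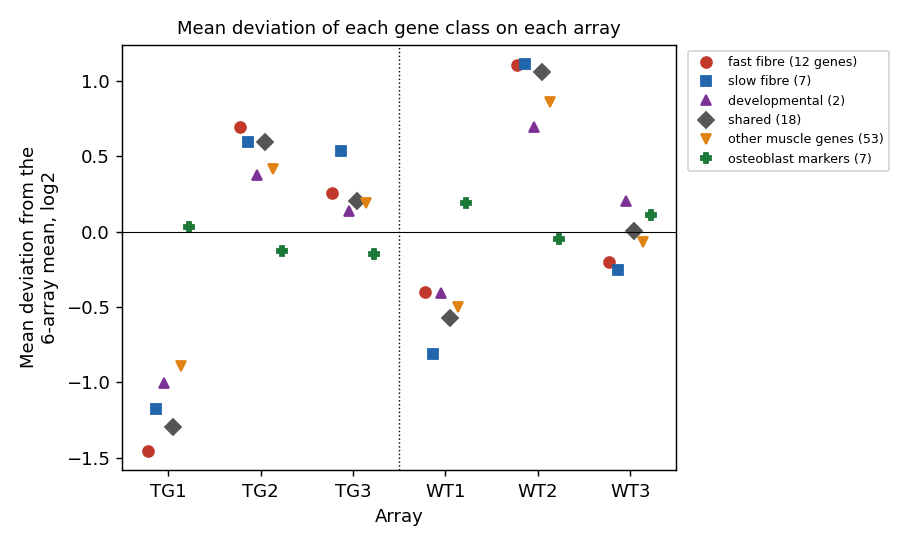
Mean deviation from the 6-array mean (log2, y axis) on each array (x axis) for fast, slow, developmental and shared muscle genes, 53 other muscle genes and 7 osteoblast markers. Every muscle class shown lies between -1.46 and -0.90 on TG replicate 1 and between 0.69 and 1.11 on WT replicate 2, while the osteoblast markers stay between -0.15 and 0.19.

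Comparing the slow with the fast gene of the same protein within each array removes the part that both share. Over 7 such pairs the TG mean lay above the WT mean in 5, and TG and WT did not overlap in 2; of all 741 pairs of tested members, 11.1% did not overlap. Tnnt1 minus Tnnt3, relative to the WT mean, was 0.93, 0.20 and 0.85 in TG, against -0.08, 0.04 and 0.04 in WT. Tnnc1 minus Tnnc2 was 0.50, 0.60 and 0.79 in TG, against 0.08, 0.21 and -0.29 in WT. These are the pairs without overlap, with mean differences of 0.66 and 0.63, and 0.60 and 0.59 with the deposited log2 values. Tnni1 minus Tnni2 was 0.14, -0.21 and 0.11 in TG, against -0.42, 0.17 and 0.25 in WT, a mean difference of 0.01, so the troponin I pair did not show it. Myoz2 minus Myoz1 and Mybpc1 minus Mybpc2 had mean differences of 0.44 and 0.32 with overlapping arrays; the second was -0.03 with the deposited values. With Y-linked signal in the model these became -0.07 and -0.19, so both changed sign, while the pairs of troponin T and C kept theirs, at 0.92 and 0.47. Casq2 minus Casq1 had -0.04, and Myh7 minus Myh1 had -0.03 with an SD of 1.35 in TG; with Y-linked signal in the model they had 0.12 and 1.54. No p is given for these pairs, since they were set side by side with results of these arrays known.

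**Figure D5:**
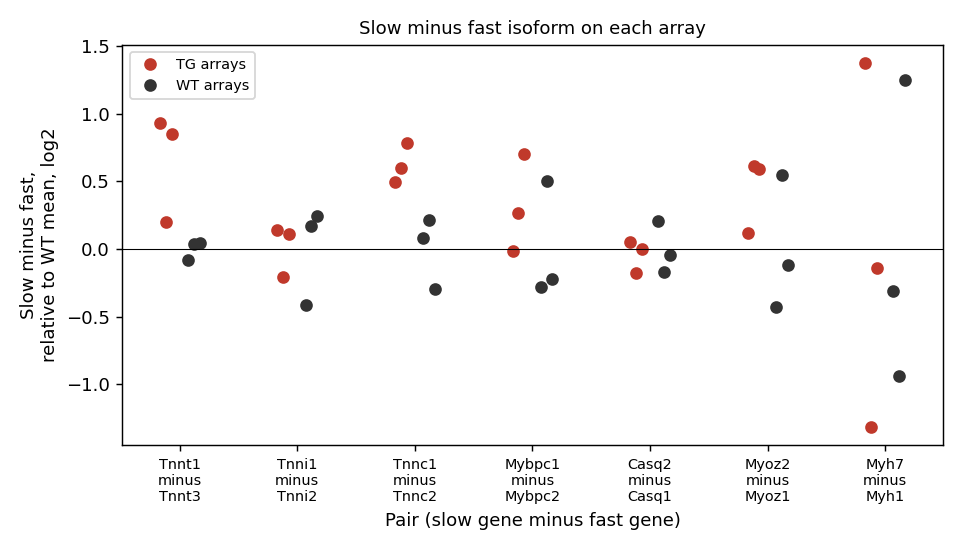
Slow minus fast gene of the same protein on each array (log2, relative to the WT mean of the pair), for 7 pairs, TG arrays in red left of WT arrays in black. TG and WT points separate for Tnnt1 minus Tnnt3 and Tnnc1 minus Tnnc2 and overlap for the other 5 pairs.

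Most, but not all, of the tested muscle genes outside the 43 showed the same array pattern. Of 53 other muscle genes tested, 0 passed, and 8 had positive and 45 negative log2 fold changes (median -0.19). A range of at least 1 was seen in 39, and 37 were highest on WT replicate 2 and lowest on TG replicate 1. In the contractile list, 26 genes were tested and the smallest unadjusted p belonged to Fbxo32, a muscle ubiquitin ligase subunit, at -0.42 ± 0.20. In the calcium and membrane list of 14 it was Cacna2d1, a calcium channel subunit, at 0.39 ± 0.21, and in the metabolism list of 13 it was Ak1, adenylate kinase, at -0.26 ± 0.12. Cacna2d1 did not follow the pattern: it was highest on TG replicate 3 and lowest on WT replicate 2. Myl2 and Myl3, the light chains of slow and cardiac muscle, chosen after their values were seen, had positive values of 0.66 ± 0.82 and 0.44. Myl2 had 8.27, 10.59 and 10.60 in TG, against 7.95, 10.80 and 8.74 in WT. By the root mean square difference from the mean pattern of the members over the 6 arrays, among 815 other genes with a range of at least 1, the 10 nearest were Dtna, Nrap, Srl, Vgll2, Myo18b, Alpk3, Ank1, Mylk2, Adssl1 and Fsd2. Dtna, alpha-dystrobrevin of the dystrophin complex, was nearest, at 0.05, and Nrap, a protein of myofibril assembly, followed at 0.08. Dtna had 6.27, 8.03 and 7.82 in TG, against 6.92, 8.54 and 7.41 in WT.

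Markers of other cell types were set beside the pattern by array. The 7 osteoblast markers had mean deviations of 0.03, -0.13 and -0.15 in TG, against 0.19, -0.05 and 0.11 in WT, so their mean did not swing with the muscle genes. Col1a1, Col1a2, Ibsp and Alpl, with ranges of 0.24 to 0.52, were lowest on WT replicate 2, and Ibsp and Alpl highest on TG replicate 1. Bglap, Sp7 and Dmp1 had other lowest arrays. Bglap had 13.16, 12.99 and 12.66 in TG, against 13.74, 13.50 and 13.91 in WT. Its groups did not overlap, as in 3.48% of all genes lower in TG, and it did not pass the test. The 5 tested of 7 genes of the neuromuscular junction, the contact of nerve and muscle, had -0.75, 0.23 and -0.01 in TG, against -0.47, 0.72 and 0.28 in WT. Among them Chrng, the fetal acetylcholine receptor subunit, had a log2 fold change of -0.69 ± 0.44, and Chrne, which replaces it in the adult, had 0.13. Of 5 cardiac markers 1, Myh6, was tested, with a range of 1.66, and was highest on WT replicate 2 and lowest on TG replicate 1, while Myl7, Nppa and Tnni3 were not detected on any array and Tnnt2 had no named probe. The 4 tested smooth muscle markers had -0.06, -0.00 and -0.09 in TG, against -0.10, -0.05 and 0.30 in WT, and the 3 tendon markers 0.10, 0.04 and -0.28 in TG, against 0.05, 0.09 and 0.01 in WT. Of 10 genes of muscle precursors 6 were tested, but Myod1 and Myog among them belong to the 43; the other 4 had deviations of -0.23 on TG replicate 1 and 0.33 on WT replicate 2, and Pax7 and Myf5, genes of muscle stem cells, were not detected on any array. Of the fat markers Adipoq and Cidea were tested, 1 from each list of white and brown fat, and both were highest on WT replicate 2, Adipoq at 6.22 and Cidea at 6.66. The 5 chondrocyte markers had mean deviations of -0.53, 1.27 and 0.44 in TG, against -0.17, -0.09 and -0.92 in WT. Col10a1, the collagen of hypertrophic cartilage, carried much of this, with a range of 6.63, and was singled out after its values were seen. Without it the other 4 had -0.09, 0.50 and 0.08 in TG, against 0.36, -0.23 and -0.62 in WT. The part of any of these cell types, or of the sex pattern, in the muscle values was not tested.

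The sex pattern cannot be told apart from the lowest array within TG. Among arrays with the male pattern, TG is the single sample TG replicate 1, and the members' median log2 fold change there was -1.46, with 39 of 39 negative and 0 past the adjusted threshold. There 23 of 39 members, and 3.5% of all genes, had an unadjusted p under 0.05 in limma, a test in which the lone TG sample is assumed to vary like the WT samples. When the average level of the Y-linked Kdm5d and Uty was added to the limma model, the median was -1.89, again with 39 negative. In that model 33 of 39 members stood at an unadjusted p under 0.05, where 5.4% of all genes did. No member had an adjusted p below 0.834. TG replicate 1 was the only TG array with a high Kdm5d level, so these values lean heavily on it. The 33 members share the array pattern above and are not separate results. Within the arrays of the male pattern in WT alone, the members' mean still ran from -0.55 on WT replicate 1 to 1.07 on WT replicate 2.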

How the data were processed

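Gene expression was measured in 6 samples, 3 TG and 3 WT. Linear intensities without background subtraction and detection p-values were deposited for every probe, per the file headers. Of 974 control rows, 936 were used as negative controls: they return the deposited detection p-values to within 0.00695. The authors also deposited normalised log2 values; lumi is named in the submitters' processing notes, and the method is not given in the sources used here.

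Intensities were corrected by normexp with the negative controls and an offset of 16 and quantile-normalised on the log2 scale with limma 3.58.1 in R 4.3.3. Probes with detection p under 0.05 on at least 3 arrays (20632 of 45281) were tested, TG against WT, by limma's moderated linear model, two-sided, with Benjamini-Hochberg adjustment over all of them. The p-values set the TG minus WT difference against the moderated spread between samples of the same group. A gene stands for its brightest tested probe; levels of different probes were not compared. The test was run on simulated data.

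Members and lists were chosen with earlier results of these data known. Fold change, SE and p are given for the tested heavy chains and the 3 members of each role group with the smallest p. Gene names come from the platform annotation; promoters and the hairpin from RefSeq. The number of arrays limits the precision. The alternatives left out the background correction, started from the authors' values, or used median scaling, an offset of 50, no filter or a stricter one, a replicate block, sex-linked signal, the mean of a gene's probes and leaving out each array.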

Additional observations from a re-analysis of the deposited data

How the results depend on the processing

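No member and no probe passed the adjusted threshold in limma (710 probes at an unadjusted p under 0.05) under the alternatives run on all arrays or on the arrays of the male pattern; the mean of a gene's probes was taken as a value with no test. On leaving out 1 array, 0 to 2 probes passed, none a member; the 2 were without TG replicate 1. The members' median log2 fold change was -0.25 with the authors' values, -0.26 without background correction and -0.29 with median scaling, always with 6 positive members, and the stricter filter kept 35 of 39 members. With Y-linked signal as a covariate 0 members were positive, the median was -1.89, and the class means were -2.02 for fast, -1.65 for slow and -1.47 for developmental genes, against -0.34, -0.03 and -0.32 in the reported fit. With the male-pattern arrays alone these were 0, -1.46, -1.62, -1.19 and -1.16; the lone TG sample is assumed to vary like the others. Leaving out 1 array at a time gave 1 to 33 positive members, a median of -0.70 to 0.24, and class means of -0.77 to 0.31 (fast), -0.44 to 0.55 (slow) and -0.61 to 0.10 (developmental). Whether samples with the same replicate number are linked by more than the number is not settled here. For replicates 1, 2 and 3, their deviations from the group means correlated at 0.26, 0.15 and -0.17 over 20632 probes. Over the 66 member probes they correlated at 0.55, 0.70 and -0.30. With the replicate number as a block, 0 probes passed, and the members' median was still -0.31. In that model 789 of the 20632 probes and 5 of the 39 members had an unadjusted p under 0.05 in limma. The share over all genes in that model is not given here, so the 5 members have no background and are not read as a result. The causes of these changes were not tested. Probes not above background on most arrays, such as those of Myh4 and Neb, and probes near the top of the range, such as Myh8, limit what the arrays show of those genes.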
